A study of Mus musculus with 12 samples.

Results

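The 32 genes described here encode chaperones and folding enzymes of the endoplasmic reticulum (ER), its degradation machinery, the sensors of the unfolded protein response, and parts of protein translocation and export. They are a list of gene names, and comprise 16 chaperones and folding enzymes, 8 degradation genes, 4 sensor genes and 4 translocation and export genes. All 32 were among the 43280 entries of the table for mutant IDH2, and 31 were among the 23930 entries of the table for 2-hydroxyglutarate (2-HG), which does not list Sec61b. RNA was measured in mouse embryonic fibroblast (MEF) cells, prepared from C57BL/6 embryos at embryonic day 13.5 and immortalized spontaneously. 2MUT cells carried a retroviral vector for human IDH2 with the cancer-associated R172S change, FLAG-tagged and selected with puromycin, and Control cells carried the vector alone. 2-HG(+) cells received 300 µM octyl-(R)-2HG, a membrane-permeant form of 2-HG, for 24 h. For the 2-HG(-) cells the labels give DMSO for 24 h, and the study also calls them non-treated. Each of the 4 groups had 3 libraries. The sources state triplicates without saying that they came from separate cultures, so p-values measure the spread between these libraries, which may be technical. Whether the 2MUT cells were a pool or a clone is not given in the sources used here.

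Libraries were made with Ion AmpliSeq, which amplifies a short target per transcript, and values are reads on a gene per 1000000 reads on genes (RPM). A gene's value therefore depends on how well its target amplifies, and changes are computed only between samples of the same table. Depth was 6472439 to 7313602 reads per library in the 2MUT table and 14959318 to 18363768 in the 2-HG table, so that 3 reads are worth 0.410 to 0.464 RPM and 0.163 to 0.201 RPM. Libraries of a group correlated at 0.976 to 0.988 across genes in the 2MUT table and at 0.989 to 0.994 in the 2-HG table, higher than libraries of different groups (0.948 to 0.956 and 0.958 to 0.967). The sum of 10 fibroblast markers was 15039 to 17010 RPM in Control and 13378 to 13822 RPM in 2MUT libraries. The 9 markers listed in the 2-HG table summed to 21645 to 23290.0 RPM without and 15256 to 16280 RPM with 2-HG. Of the 9 markers tested, 7 were lower and 1 higher in 2MUT, and 5 were lower and 1 higher in 2-HG(+). Epithelial and adipocyte markers summed to at most 0.60 RPM in any library, endothelial and muscle markers to at most 3.46 RPM, and leukocyte markers to at most 14.6 RPM. Fewer cells of a type and less RNA per cell cannot be told apart in such samples. The part of the change in fibroblast markers in the results for the ER genes was not tested. Mouse Idh2 fell from 77.3 ± 5.54 RPM (Control; SD, n = 3) to 49.6 ± 6.39 RPM (2MUT). Whether its mouse target also amplifies the human transgene is not given, so it does not check the labels.

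Proteins entering the secretory pathway fold in the ER with the help of the Hsp70 chaperone BiP (Hspa5), its J-domain partners (Dnajb9, Dnajb11, Dnajc3), the lectin chaperones calnexin and calreticulin, and protein disulfide isomerases. When unfolded proteins accumulate, the sensors IRE1 (Ern1), ATF6 and PERK (Eif2ak3) become active. IRE1 splices the Xbp1 mRNA, ATF6 is cut to release a transcription factor, and PERK phosphorylates eIF2α, which lowers translation and raises ATF4. Spliced XBP1 and cleaved ATF6 switch on genes for chaperones and for ER-associated degradation, which moves misfolded proteins to the cytosol for the proteasome. Fibroblasts secrete large amounts of collagen and depend on this machinery. The values here are RNA levels, so splicing of Xbp1, cleavage of ATF6 and phosphorylation of PERK are not seen in them.

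Sequences of 300 bases around the start site (250 before and 50 after) were taken from RefSeq on GRCm38.p6 for 27 of the 32 members. They were searched on both strands for the ER stress response element ERSE (CCAAT, 9 bases, then CCACG), which binds ATF6 together with NF-Y. They were also searched for the shorter ERSE-II (ATTGG, 1 base, then CCACG), and 10 members held an ERSE and 2 an ERSE-II. Among all 32851 promoters of the same length, 0.119% held an ERSE and 0.0365% an ERSE-II. The members were listed as genes of the ER stress response, whose elements these are, so this contrast is no independent result. The ERSE members were Hspa5, Hsp90b1, Calr, Canx, Pdia6, Dnajc3, Creld2, Ero1lb (Ero1b in RefSeq), Syvn1 and Derl3. The ERSE-II members were Dnajb11 and Herpud1. The promoters of Herpud1, Dnajb11, Hspa5 and Hsp90b1 are shown because they carry these elements in members that the results turn on, and that of Dnajb9 because its gene had the largest change. Capitals mark the element, positions are counted with the start site as 0, and all sequences run 5′ to 3′ along the gene.
Herpud1, chr8:94386179-94386478, plus strand, ERSE-II at -52 to -42: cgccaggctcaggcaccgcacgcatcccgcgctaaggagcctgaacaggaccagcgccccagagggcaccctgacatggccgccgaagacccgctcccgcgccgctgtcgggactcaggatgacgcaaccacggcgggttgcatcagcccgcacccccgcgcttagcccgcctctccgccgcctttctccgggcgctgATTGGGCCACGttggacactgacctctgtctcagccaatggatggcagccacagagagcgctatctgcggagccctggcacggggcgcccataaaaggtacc
Dnajb11, chr16:22857595-22857894, plus strand, ERSE-II at 7 to 17: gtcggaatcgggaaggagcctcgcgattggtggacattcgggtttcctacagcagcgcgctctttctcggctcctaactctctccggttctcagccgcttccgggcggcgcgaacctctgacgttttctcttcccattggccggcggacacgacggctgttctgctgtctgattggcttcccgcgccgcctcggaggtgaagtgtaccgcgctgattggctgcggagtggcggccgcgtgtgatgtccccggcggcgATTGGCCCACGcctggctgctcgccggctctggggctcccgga
Hspa5, chr2:34771840-34772139, plus strand, ERSE at -65 to -47: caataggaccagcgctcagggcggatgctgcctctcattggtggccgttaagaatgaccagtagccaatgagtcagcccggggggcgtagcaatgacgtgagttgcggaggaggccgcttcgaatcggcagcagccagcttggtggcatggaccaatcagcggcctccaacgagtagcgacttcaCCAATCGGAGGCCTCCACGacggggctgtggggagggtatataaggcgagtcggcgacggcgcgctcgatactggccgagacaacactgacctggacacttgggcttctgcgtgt
Hsp90b1, chr10:86705395-86705694, minus strand, ERSE at -212 to -194 and, on the opposite strand, at -107 to -89: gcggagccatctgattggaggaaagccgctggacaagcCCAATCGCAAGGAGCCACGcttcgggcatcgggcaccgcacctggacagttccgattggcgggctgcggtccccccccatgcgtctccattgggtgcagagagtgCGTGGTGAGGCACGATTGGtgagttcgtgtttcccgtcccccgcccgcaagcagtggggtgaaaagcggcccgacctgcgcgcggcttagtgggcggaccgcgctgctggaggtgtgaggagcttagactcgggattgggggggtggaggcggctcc
Dnajb9, chr12:44210019-44210318, minus strand, neither element: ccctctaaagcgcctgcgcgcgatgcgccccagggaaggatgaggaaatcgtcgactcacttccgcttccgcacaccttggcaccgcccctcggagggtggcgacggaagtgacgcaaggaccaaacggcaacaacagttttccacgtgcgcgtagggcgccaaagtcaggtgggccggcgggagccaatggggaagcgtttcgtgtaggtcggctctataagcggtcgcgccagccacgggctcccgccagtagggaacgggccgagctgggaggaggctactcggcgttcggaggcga
The 3′ end of both elements, CCACG, was common by itself, in 23 of the 27 members and in 32.8% of all promoters. A match is a description of the letters and does not show that a factor binds there.

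In 2MUT cells, 7 of the 10 members that rose were genes for folding, which make up 16 of the 30 members tested. The J-domain co-chaperone Dnajb9, the disulfide isomerases Pdia3, P4hb and Pdia4, the BiP partners Dnajb11 and Sdf2l1, calnexin (Canx), the degradation genes Herpud1 and Edem2, and the sensor Ern1 were higher than in Control. Of the 30 members with a mean of at least 1 RPM, 10 were called higher and 0 lower by limma with Benjamini-Hochberg adjustment over all genes (adjusted p under 0.05). Over all 11065 genes tested, 16.5% were called higher and 17.3% lower. At an unadjusted p under 0.05, 12 members were higher and 2 lower, beside 21.9% and 22.2% of all genes. edgeR on whole reads recovered from the RPM called 9 members higher and 0 lower. The members' median change was 0.18 on the log2(RPM + 1) scale, beside 0.01 over all genes. All 3 2MUT libraries lay above all 3 Control libraries for 12 of the 30, against 23.5% of all genes, and below them for Manf. The share of all genes lying below was not counted.

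**Figure D1:**
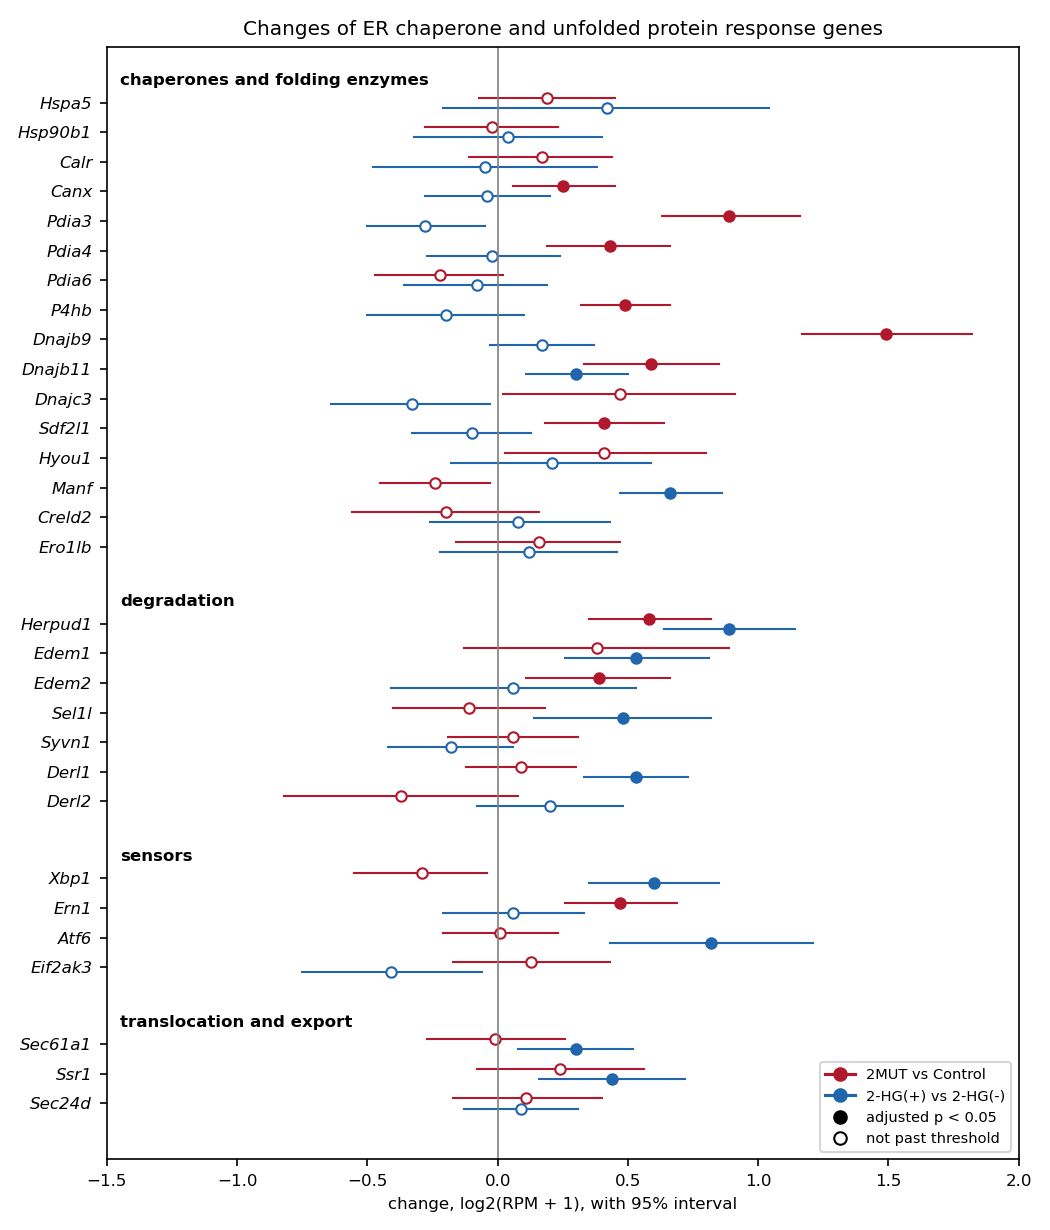
Change of the 30 tested members on the log2(RPM + 1) scale (x axis) with its 95% interval, for 2MUT against Control (red) and 2-HG(+) against 2-HG(-) (blue), 3 libraries per group. Filled points passed the threshold: 10 members in each comparison, 7 of them chaperones or folding enzymes in 2MUT and 2 with 2-HG.

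Among the chaperones and folding enzymes, 7 of 16 were called higher in 2MUT cells and the median change was 0.33. Dnajb9, which binds unfolded proteins and holds IRE1 inactive together with BiP, was at 15.5, 15.8 and 13.0 RPM in the Control libraries and at 48.8, 41.6 and 39.8 RPM in the 2MUT libraries. All 2MUT values were far above the Control values, with a log2 change of 1.49 (SE 0.15, limma adjusted p = 3.3e-05). Pdia3, the disulfide isomerase that works with calnexin and calreticulin on glycoproteins, was at 48.8, 59.5 and 54.8 RPM in Control and 110.0, 104 and 92.2 RPM in 2MUT. Its groups did not overlap, and the log2 change was 0.89 (SE 0.12, limma adjusted p = 0.00024). Dnajb11, another BiP co-chaperone of the ER lumen, was at 143, 109.5 and 142 RPM in Control and 186, 203 and 204 RPM in 2MUT (log2 change 0.59, SE 0.12, limma adjusted p = 0.0029). The second Control library was the lowest and every 2MUT library was above all of Control.

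The other 4 chaperone and folding genes called higher in 2MUT changed less. P4hb, the disulfide isomerase that is also a subunit of collagen prolyl hydroxylase, had a mean of 2605 ± 25.2 RPM in the Control libraries and of 3656 ± 140.1 RPM in those of 2MUT (SD, n = 3), a log2 change of 0.49 with a limma adjusted p of 0.00074. Pdia4, a disulfide isomerase with several thioredoxin-like domains, was 319 ± 39.6 and 428 ± 29.2 RPM (log2 change 0.43, limma adjusted p = 0.0097). Sdf2l1, which forms a complex with Dnajb11, was 90.6 ± 6.10 and 121 ± 7.48 RPM (0.41, limma adjusted p = 0.011). The call for Sdf2l1 was lost without 2MUT replicate 2 (0.36, limma adjusted p = 0.057). Canx, the membrane-bound lectin chaperone, was 480.1 ± 36.5 and 572 ± 19.2 RPM (0.25, limma adjusted p = 0.047). It passed by little, and kept its call only when Control replicate 1 was the library left out (log2 change 0.19 to 0.30 over the libraries left out). The calls for Dnajb9, Pdia3, P4hb, Dnajb11 and Pdia4 held with any library left out. Those for Dnajb11 and Pdia4 were lost with an unmoderated test (adjusted p = 0.053 and 0.076).

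BiP itself, the main ER Hsp70 and the usual readout of ER stress, did not pass. Hspa5 was at 1193, 895 and 1257 RPM in Control and 1225, 1289.7 and 1270.5 RPM in 2MUT, so the groups overlapped (log2 change 0.19, 95% interval -0.07 to 0.45, limma adjusted p = 0.23). Hsp90b1, the ER member of the Hsp90 family, was at 1046, 764 and 1019 RPM in Control and 909, 891 and 959.5 RPM in 2MUT (-0.02, interval -0.28 to 0.23). These intervals leave room for changes in both directions for Hsp90b1 and for a rise of up to 0.45 for Hspa5. Calr (0.17), Hyou1, an Hsp70-like nucleotide exchange factor (0.41), Dnajc3, an inhibitor of PERK (0.47), and the oxidase Ero1lb (0.16) also gave values above 0 that did not pass. Dnajc3 passed without Control replicate 3 (0.68, limma adjusted p = 0.011), and Hyou1 with an unmoderated test (adjusted p = 0.038). Pdia6 (-0.22), Creld2 (-0.20) and Manf, a secreted factor induced by ER stress (-0.24), gave values below 0 that did not pass, with limma adjusted p-values of 0.14, 0.37 and 0.073. Without Control replicate 2 Manf was called lower (-0.31, limma adjusted p = 0.034), as was Pdia6 without Control replicate 3 (-0.31, limma adjusted p = 0.047).

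Of the 7 degradation genes tested, 2 were called higher in 2MUT cells. Herpud1, a membrane protein that gathers the retrotranslocation complex, was at 74.9, 79.2 and 89.8 RPM in Control and 126, 116 and 123 RPM in 2MUT. The groups were well apart, with a log2 change of 0.58 (SE 0.11, limma adjusted p = 0.0018). Herpud1 is in a list of genes that the study drew from these same libraries, so its rise is no independent evidence. Edem2, which starts mannose trimming of misfolded glycoproteins, was 30.6 ± 1.90 and 40.4 ± 2.13 RPM (0.39, limma adjusted p = 0.033). Its call was lost without Control replicate 2 or without any 2MUT library (0.34 to 0.43 over the libraries left out). Edem1 (0.38), Sel1l (-0.11) and Syvn1 (0.06), the adaptor and the ubiquitin ligase of the main degradation complex, and the channel proteins Derl1 (0.09) and Derl2 (-0.37) did not pass. Derl3, a derlin of secretory tissues, had 0 to 2 reads per library in the 2MUT table and was not tested. It had 0 reads in every library of the 2-HG table, which allows up to 0.201 RPM by counting error alone.

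Of the 4 sensor genes, Ern1 was called higher in 2MUT. Ern1 encodes the kinase and nuclease IRE1 and was at 412, 362 and 435 RPM in Control and 587, 519 and 573 RPM in 2MUT (log2 change 0.47, SE 0.10, limma adjusted p = 0.0034). All 2MUT libraries were above all Control libraries, and the call held with any library left out. Xbp1, whose mRNA IRE1 splices, was at 466, 363 and 378 RPM in Control and 305, 312 and 364 RPM in 2MUT. The groups overlapped by little, and the change of -0.29 did not pass (limma adjusted p = 0.070). It passed without Control replicate 2 (-0.36) or Control replicate 3 (-0.33), with limma adjusted p-values of 0.047 and 0.046. Atf6 was at 151, 132 and 136 RPM in Control and 147, 134 and 139 RPM in 2MUT (0.01, interval -0.21 to 0.23). Eif2ak3, the gene of PERK, was at 71.2, 84.3 and 68.5 RPM in Control and 91.3, 87.0 and 68.1 RPM in 2MUT (0.13, interval -0.17 to 0.43). Neither gene's groups were apart.

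The translocation and export genes tested, Sec61a1 of the translocon channel (-0.01), Ssr1 of the translocon-associated complex (0.24) and the COPII coat protein Sec24d (0.11), gave 0 of 3 calls in 2MUT, and also 0 of 3 at an unadjusted p under 0.05 by limma or edgeR. Ssr1 passed without Control replicate 3 (0.41, limma adjusted p = 0.018). Sec61b, another translocon subunit, is listed at 0 in every library of the 2MUT table and was not tested. Whether its target amplifies at all is not given in the sources used here, so these values do not show that its RNA is absent.

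**Figure D2:**
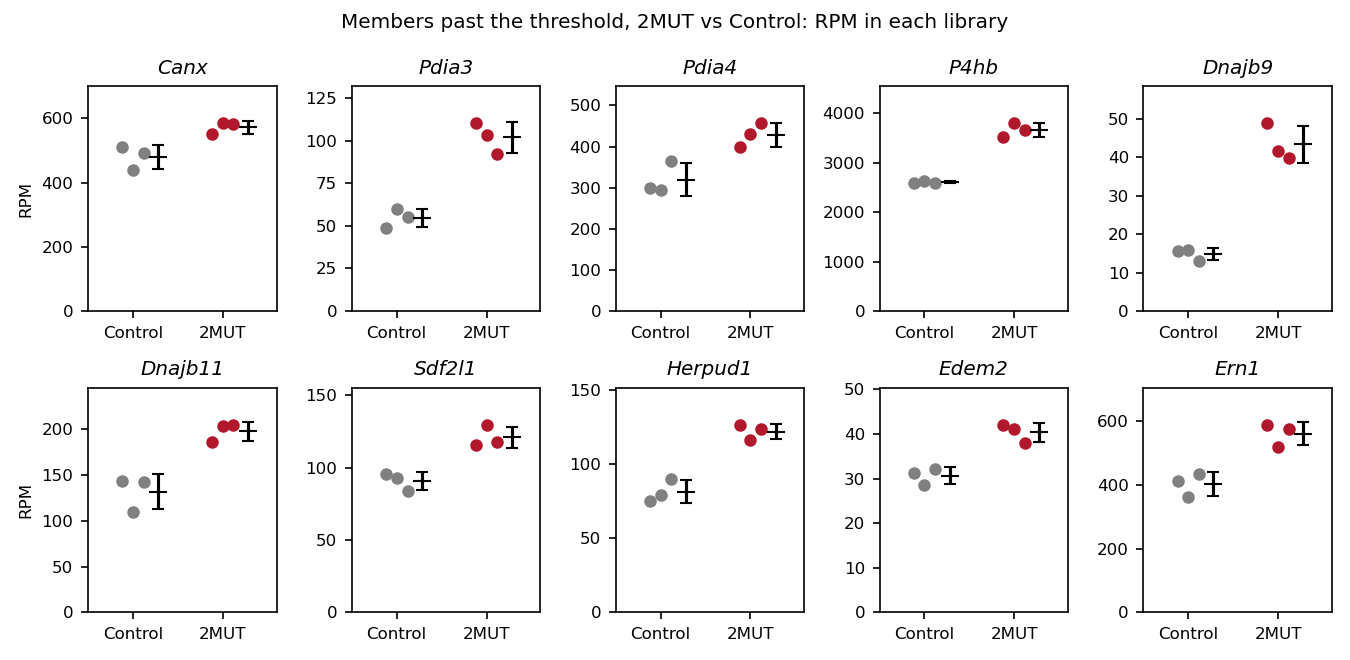
RPM (y axis, from 0) of each library for the 10 members called higher in 2MUT, with Control in grey and 2MUT in red. Black bars are the mean and SD of 3 libraries. Each of the 10 had every 2MUT library above every Control library, with the widest gap relative to its level for Dnajb9.

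With 2-HG, 8 of the 10 members that rose were genes of degradation, sensing or translocation, which make up 14 of the 30 members tested. Herpud1, Edem1, Sel1l and Derl1 of the degradation machinery, the transcription factor genes Atf6 and Xbp1, Sec61a1 and Ssr1 of the translocon, and the BiP partners Dnajb11 and Manf were higher in 2-HG(+) than in 2-HG(-) cells. By limma, 10 of 30 members were called higher and 0 lower, beside 16.1% and 16.7% of all 10384 genes tested. At an unadjusted p under 0.05, 10 were higher and 3 lower, beside 21.1% and 22.1% of all genes. The count called higher was 10 with edgeR on whole reads, 6 without 2-HG(-) replicate 3 and 5 with an unmoderated test, and 0 were called lower in each. The 5 members lost with the unmoderated test were Edem1, Sel1l, Atf6, Sec61a1 and Ssr1. The members' median change was 0.10 on the log2(RPM + 1) scale, beside -0.02 over all genes. All 3 2-HG(+) libraries lay above all 3 2-HG(-) libraries for 11 of the 30, against 22.2% of all genes, and below them for Pdia3. Here too, the share of all genes lying below was not counted.

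Of the 7 degradation genes tested, 4 were called higher with 2-HG, and their group's median change was 0.48. Herpud1 was at 67.0, 63.5 and 73.5 RPM in 2-HG(-) and 111, 134 and 136 RPM in 2-HG(+), the largest change of any member in this comparison (log2 0.89, SE 0.11, limma adjusted p = 0.00034). Derl1, thought to form part of the channel through which misfolded proteins leave the ER, was at 329, 310.1 and 339 RPM in 2-HG(-) and 452, 492 and 467 RPM in 2-HG(+) (0.53, SE 0.09, limma adjusted p = 0.0018). For both genes the groups were far apart. Edem1, a mannosidase-like protein that delivers glycoproteins for degradation, was at 101, 116 and 106 RPM in 2-HG(-) and 179, 162 and 132 RPM in 2-HG(+) (0.53, SE 0.12, limma adjusted p = 0.0093). Sel1l was 161 ± 20.9 and 227 ± 45.0 RPM (0.48, limma adjusted p = 0.035). The Sel1l groups did not overlap, but the call held only without 2-HG(-) replicate 2 or 2-HG(+) replicate 3 (0.33 to 0.60 over the libraries left out). Edem2 (0.06), Syvn1 (-0.18) and Derl2 (0.20) did not pass, and Derl2 passed without 2-HG(+) replicate 1 (0.33, limma adjusted p = 0.031).

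Of the sensor genes, Xbp1 and Atf6 were called higher with 2-HG and Ern1 and Eif2ak3 were not. Xbp1 was at 329, 397 and 403 RPM in 2-HG(-) and 582, 602 and 524 RPM in 2-HG(+), and its groups were well apart (log2 change 0.60, SE 0.11, limma adjusted p = 0.0028). Atf6 was at 47.8, 48.2 and 29.5 RPM in 2-HG(-) and 69.7, 73.8 and 75.2 RPM in 2-HG(+) (0.82, SE 0.17, limma adjusted p = 0.0060). The third 2-HG(-) library was the lowest, and without it the change of Atf6 was 0.59 with a limma adjusted p of 0.0083. Ern1 was at 82.7, 109 and 86.6 RPM in 2-HG(-) and 102, 93.9 and 91.5 RPM in 2-HG(+), with overlapping groups (0.06, interval -0.21 to 0.33). Eif2ak3 was at 28.2, 26.3 and 21.1 RPM in 2-HG(-) and 16.8, 22.1 and 17.3 RPM in 2-HG(+), a change of -0.41 that did not pass (limma adjusted p = 0.069). It passed without 2-HG(+) replicate 2 (-0.53, limma adjusted p = 0.044).

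Among the chaperones and folding enzymes, 2 of 16 were called higher with 2-HG and the median change was 0.01. Manf was at 468, 440.4 and 478 RPM in 2-HG(-) and 713, 749.8 and 733 RPM in 2-HG(+), with little spread in either group (0.66, SE 0.09, limma adjusted p = 0.00047). Dnajb11 was at 144, 152 and 145 RPM in 2-HG(-) and 187, 182 and 176 RPM in 2-HG(+) (0.30, SE 0.09, limma adjusted p = 0.023). Its groups were apart, and its call was lost without 2-HG(-) replicate 1, 2-HG(-) replicate 3 or 2-HG(+) replicate 2 (0.28 to 0.33 over the libraries left out). Hspa5 was at 1257, 1451 and 897 RPM in 2-HG(-) and 1879.6, 972 and 2136 RPM in 2-HG(+). Its libraries spread widely, with the second 2-HG(+) library among the 2-HG(-) values, and the change of 0.42 (interval -0.21 to 1.04) did not pass (limma adjusted p = 0.28). Without that library it was 0.77 with a limma adjusted p of 0.017. Hsp90b1 was at 1601, 2429 and 2019.7 RPM in 2-HG(-) and 2337, 2002 and 1822 RPM in 2-HG(+) (0.04, interval -0.32 to 0.40). Calr (-0.05), Canx (-0.04), Pdia4 (-0.02), Pdia6 (-0.08) and P4hb (-0.20) lay slightly below 0, and none of them passed.

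Pdia3 was 1199 ± 86.7 RPM in 2-HG(-) and 989 ± 51.4 RPM in 2-HG(+), with all treated libraries below the others (-0.28, limma adjusted p = 0.059). Dnajb9, the gene that rose most in 2MUT, was 88.6 ± 4.36 and 99.7 ± 1.80 RPM with 2-HG (0.17, interval -0.03 to 0.37, limma adjusted p = 0.18). Dnajc3 (-0.33), Sdf2l1 (-0.10), Hyou1 (0.21), Creld2 (0.08) and Ero1lb (0.12) did not pass either. In the translocon, Sec61a1 was 588 ± 31.1 and 727 ± 50.8 RPM (0.30, limma adjusted p = 0.039), and Ssr1 254 ± 25.3 and 346 ± 47.4 RPM (0.44, limma adjusted p = 0.023). These are the least stable calls with that of Sel1l. That of Sec61a1 held only without 2-HG(+) replicate 1 (0.26 to 0.36 over the libraries left out), and that of Ssr1 only without 2-HG(-) replicate 1 or 2-HG(+) replicate 1 (0.36 to 0.56). Sec24d did not pass (0.09).

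**Figure D3:**
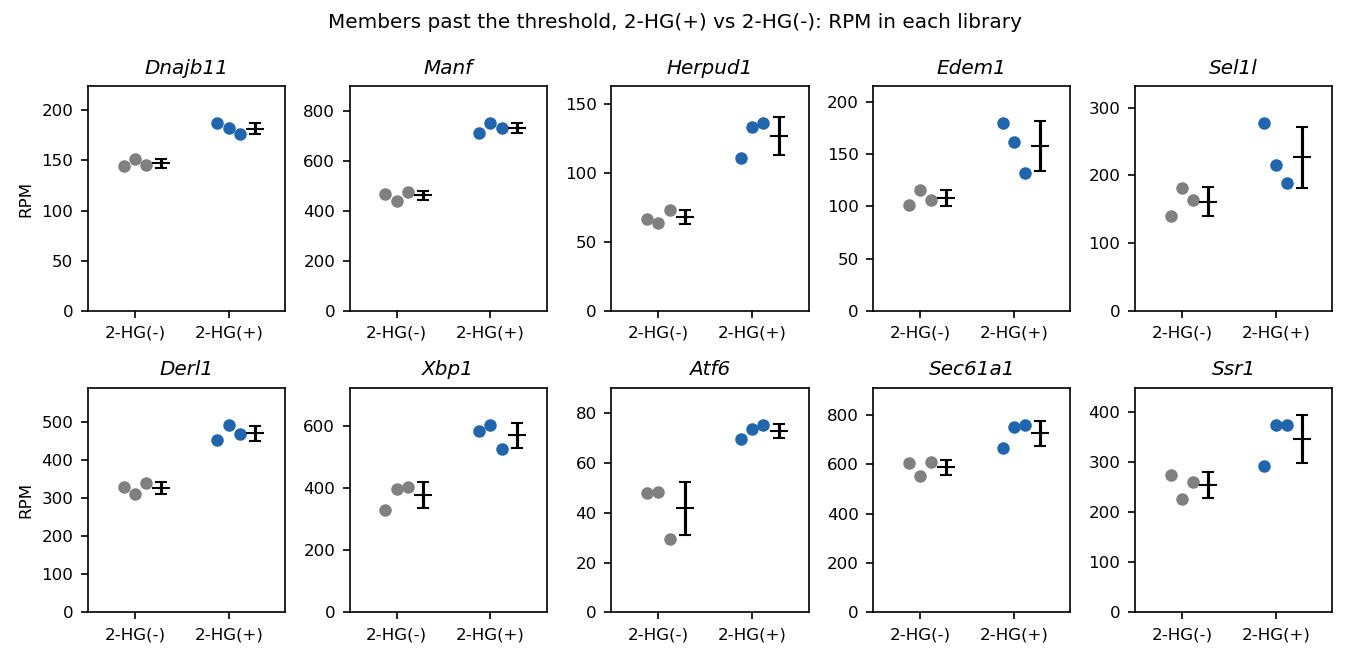
RPM (y axis, from 0) of each library for the 10 members called higher with 2-HG, with 2-HG(-) in grey and 2-HG(+) in blue. Black bars are the mean and SD of 3 libraries. Each of the 10 had every 2-HG(+) library above every 2-HG(-) library, with the widest gap relative to its level for Herpud1.

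Of the 30 members, 2 were called higher in both comparisons (Dnajb11 and Herpud1), 8 in 2MUT only, 8 with 2-HG only and 12 in neither. Over the 9594 genes tested in both, these shares were 1.5%, 15.1%, 14.9% and 68.5%. The comparisons share no libraries, and a count of 2 is too small to set the members apart. Whether a change differed between them was tested over the 12 libraries as the 2MUT change minus the 2-HG change, and 11 of the 30 members passed (limma adjusted p under 0.05), beside 39.4% of the 9594 genes tested. The share of members is thus close to that of all genes. The median difference over all genes was 0.05.

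The change was greater in 2MUT for 6 of the 30 members and greater with 2-HG for 5, beside 19.9% and 19.5% of all genes. The 6 were chaperones or folding enzymes, as are 16 of the 30 members tested, and the classes were not tested against each other. The difference was 1.32 for Dnajb9 (SE 0.16, limma adjusted p = 2.1e-05) and 1.17 for Pdia3 (limma adjusted p = 2.7e-05). It was 0.68 for P4hb, 0.51 for Sdf2l1, 0.80 for Dnajc3 and 0.44 for Pdia4, with limma adjusted p-values of 0.0036, 0.0098, 0.022 and 0.043. The baselines of some of these members were unlike, with Pdia3 22.0-fold, Dnajc3 12.2-fold and Dnajb9 5.99-fold lower in Control than in 2-HG(-) cells, across tables that were normalized separately. Whether the kit version or cell passage differed between the experiments is not given in the sources used here, and the part of the baselines in the differences was not tested. Dnajc3 had passed in neither comparison, with values of 0.47 and -0.33, and its difference did not pass without the first library of 2-HG(-) (0.73) or of 2-HG(+) (0.67). The difference for Pdia4 held in 4 of the 12 fits with a library left out (0.37 to 0.54). That for P4hb was lost under quantile scaling (limma adjusted p = 0.12).

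The 5 members whose change was greater with 2-HG were the factor genes Xbp1 (-0.89, limma adjusted p = 0.00092) and Atf6 (-0.81, limma adjusted p = 0.0086), Manf (-0.90, limma adjusted p = 6.8e-05), Derl1 (-0.44, limma adjusted p = 0.011) and Sel1l (-0.59, limma adjusted p = 0.044). That for Sel1l held in 3 of the 12 fits with a library left out (-0.74 to -0.44), and that for Derl1 was lost under quantile scaling (limma adjusted p = 0.057). Ern1, called in 2MUT only, gave a difference of 0.42 that just missed the threshold (limma adjusted p = 0.053). For Herpud1 (-0.31, limma adjusted p = 0.13) and Dnajb11 (0.29, limma adjusted p = 0.14), called in both, the difference did not pass, which does not show that their changes were equal.

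**Figure D4:**
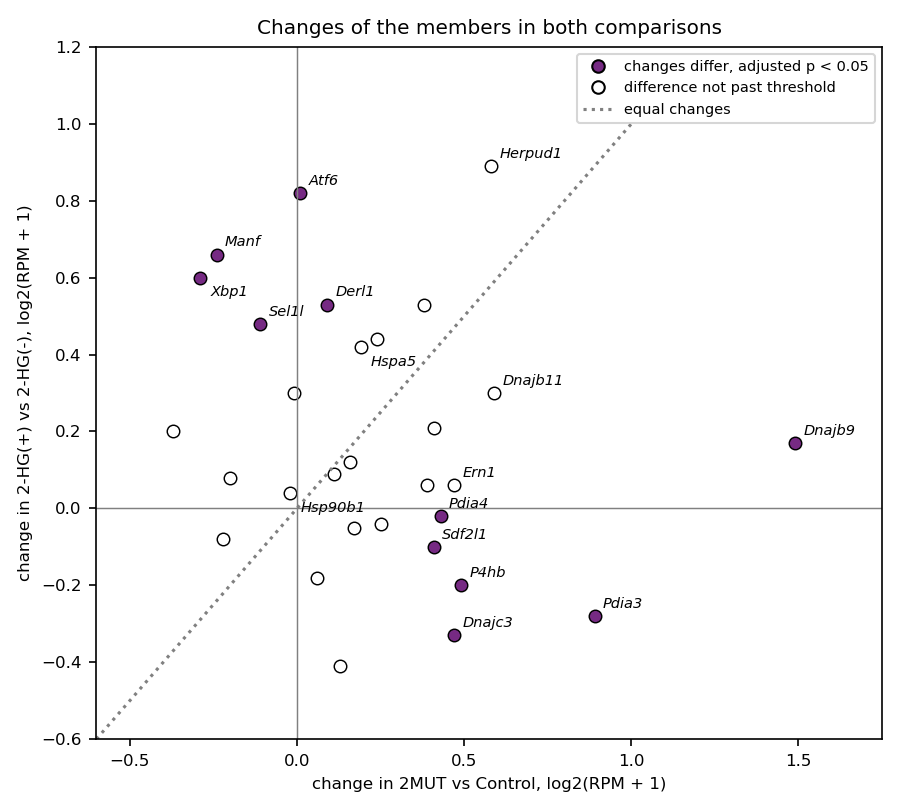
Change in 2MUT (x axis) against change with 2-HG (y axis), both on the log2(RPM + 1) scale, for the 30 members tested in both. Filled points are the 11 members whose changes differed (limma adjusted p under 0.05), 6 to the lower right and 5 to the upper left of the dotted line of equal changes.

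Set beside the promoter elements printed above, both ERSE-II members, Dnajb11 and Herpud1, were called higher in each comparison. Of the 9 ERSE members tested, 1 was called higher in 2MUT (Canx) and 0 with 2-HG. edgeR called 0 in either comparison, and limma at an unadjusted p under 0.05 gave 2 higher in 2MUT and 1 lower with 2-HG. The median change of the ERSE members was 0.16 in 2MUT and -0.04 with 2-HG. Of the 14 tested members whose promoter held neither element, 7 were called higher in 2MUT, among them Dnajb9, and 4 with 2-HG. Over all genes, 16.5% and 16.1% were called higher. These are counts of few genes and were not tested. Only exact matches were counted, so a promoter with neither element may hold a near match. That of Pdia3 holds CCAAT, 9 bases, then CCACA, 1 base off an ERSE. The XBP1 core TGACGTGG was in 1 member promoter (Sec24d) and in 0.676% of all promoters, and the promoters of Manf, Derl1, Atf6, Sec61a1 and Hyou1 were not analysed here.

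**Figure D5:**
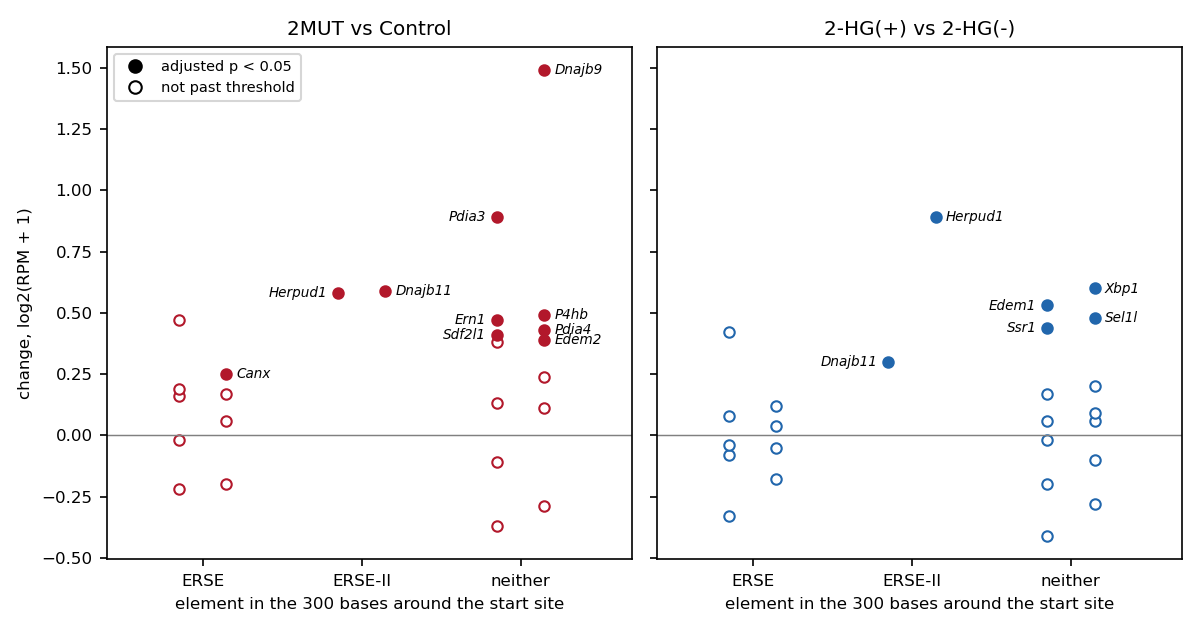
Change on the log2(RPM + 1) scale (y axis) of the tested members by the element in the 300 bases around the start site, in 2MUT (left) and with 2-HG (right). Filled points passed the threshold: 1 of 9 ERSE members, 2 of 2 ERSE-II members and 7 of 14 others in 2MUT, and 0 of 9, 2 of 2 and 4 of 14 with 2-HG. Points are shifted sideways for legibility.

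Other genes of the same pathways gave calls in both directions, and these lists were not tested as sets. Over all genes, 16.5% were called higher and 17.3% lower in 2MUT, and 16.1% and 16.7% with 2-HG. Of 28 further ER folding genes, 7 were higher and 3 lower in 2MUT (median 0.14), and 1 higher and 3 lower with 2-HG (median -0.04). The 1 that rose with 2-HG was Ero1l, the main oxidase that drives disulfide formation, at 158 ± 20.9 and 464 ± 40.9 RPM (1.55, limma adjusted p = 1.9e-05). Of the further degradation genes, 4 of 18 were higher and 1 lower in 2MUT (median 0.24), and 4 of 19 higher and 4 lower with 2-HG (median -0.09). Of 24 further genes of translocation, signal peptide removal and glycosylation, 4 were higher and 1 lower in 2MUT (median 0.21), and 8 higher and 2 lower with 2-HG (median 0.27). The 1 that fell in 2MUT was Srp68 of the signal recognition particle, at 744 ± 60.4 and 365 ± 22.8 RPM (-1.03, limma adjusted p = 1.7e-05). Of 10 COPII genes, 2 were higher in 2MUT and 1 with 2-HG, and of 6 further transducers of ER stress, 1 was higher and 1 lower in 2MUT and 1 higher with 2-HG.

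The ATF4 branch, downstream of PERK and of the other eIF2α kinases, was not among the 32 members. All 8 of its genes were called higher with 2-HG, with log2 changes of 0.91 to 2.80. In 2MUT, 3 were higher (Chac1, Atf3 and Sesn2) and 1 lower, and Atf3 is in the study's own list from these libraries. That 1 was Ddit3, the gene of the factor CHOP, which fell in 2MUT from 142 ± 42.8 to 56.7 ± 5.84 RPM (-1.26, limma adjusted p = 0.00055) and rose with 2-HG from 44.2 ± 10.6 to 176 ± 7.67 RPM (1.99, limma adjusted p = 1.6e-05).

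Of the 32 members, 10 share exon bases with another annotated gene on GRCm38 (GENCODE M21), and whether reads were counted by strand is not given in the sources used here. Pdia3 (chr2:121413775-121438687, plus strand) overlaps Catsper2 on the opposite strand. Catsper2 was 8.99 ± 2.00 RPM in the Control and 13.2 ± 2.20 RPM in the 2MUT libraries (log2 change 0.52, limma adjusted p = 0.074), and gave -0.22 with 2-HG. Manf (chr9:106838312-106891979, minus strand) overlaps Rbm15b on the same strand. Rbm15b was higher in 2MUT (0.60, limma adjusted p = 0.026) and gave 0.00 with 2-HG. The part of reads from such partners in the members' changes was not tested. Dnajb9 (chr12:44205559-44210326, minus strand) and Pdia4 (chr6:47796141-47813430, minus strand) overlap only annotated miRNA genes. The other members concerned were Hsp90b1, Pdia6, Syvn1, Derl2, Eif2ak3 and Sec61a1. Where the amplified target lies in each gene is not given, so reads from the 2 genes of a pair cannot be told apart.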

How the data were processed

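Total RNA of 12 MEF libraries was measured with the Ion AmpliSeq mouse transcriptome kit on an Ion Proton. The authors aligned reads with TMAP to the AmpliSeq mouse transcript reference, obtained read counts per gene from the AmpliSeqRNA plug-in (5.2.0.3, Torrent Suite 5.2.2) and deposited RPM, in a table for each experiment. Their tests used GeneSpring GX 13.1. RPM values were whole multiples of 1 read (within 0.05 reads) for 99.91 to 100% of values, which gave each library's depth. Groups came from the sample labels, and 0 columns were left unmapped. Members and gene lists were chosen with earlier results of these data known.

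limma 3.58.1 (R 4.3.3, trended variance) was run on log2(RPM + 1) within a table, for genes whose mean reached 1 RPM, with Benjamini-Hochberg adjustment over all genes and a threshold of 0.05. Fold changes on this scale understate those of low genes. The difference contrast used all 12 libraries, without date-like or repeated names. Values were given per library for members called with a log2 change of at least 0.5, for those called in both comparisons, and for Hspa5, Hsp90b1 and the sensors; genes of the other pathway lists were given values only where called with at least 1 in a comparison, and not all such genes are named. Idh2, Catsper2 and Rbm15b were named outside this rule. The code was tested on simulated data. Alternatives were 0.1 added before the logarithm, no filter or 10 RPM, median-of-ratios and quantile scaling, an unmoderated test, a replicate block, edgeR 4.0.16 quasi-likelihood on whole reads, and leaving out each library. Limits on counts of 0 (3 reads) cover counting error only. Loci are from GENCODE M21 and promoters from RefSeq, both on GRCm38.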

Additional observations from a re-analysis of the deposited data

How the results depend on the processing

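Counts of members called were within 1.5 times the reported ones in 2MUT and for the difference under every alternative run, 8 to 10 and 8 to 11 members over the alternatives that keep all libraries, and 7 to 13 and 9 to 12 with a library left out. The filter at 10 RPM removed Hyou1 in both tables and Ero1lb in the 2-HG table. With 2-HG the count of 10 fell to 5 with the unmoderated test. The replicate numbers gave no sign of pairing, since same-numbered libraries deviated together at r = 0.029 to 0.071 in the 2MUT table and -0.457 to 0.057 in the 2-HG table. Differently numbered libraries gave r = -0.138 to 0.089 in the 2MUT table. In the 2-HG table they gave -0.414 to 0.48, highest for 2-HG(-) replicate 2 with 2-HG(+) replicate 1. Pairing in another order was not tested. With the replicate block, 10 members were called in 2MUT, 6 with 2-HG (without Dnajb11, Sel1l, Sec61a1 and Ssr1) and 9 for the difference. Leaving out each library gave 6 to 10 members with 2-HG, with the fewest without 2-HG(-) replicate 3. Calls held under all alternatives for 5 of 10 members in 2MUT (Dnajb9, Pdia3, P4hb, Herpud1, Ern1), 4 of 10 with 2-HG (Herpud1, Manf, Derl1, Xbp1) and 6 of 11 differences (Dnajb9, Pdia3, Sdf2l1, Manf, Xbp1, Atf6). Over all genes, the unmoderated test called 1021 higher and 1223 lower in 2MUT and 1098 and 1139 with 2-HG, against 1826 and 1915, and 1668 and 1737. The cause of these shifts was not tested. No member reversed among those called. Of members not called, signs changed for Hsp90b1 (0.03) and Sec61a1 (0.02) in 2MUT, P4hb with 2-HG (0.01) and Ero1lb for the difference (-0.08) under quantile scaling, and for Pdia4 with 2-HG (0.02) and Sec24d for the difference (-0.01) under median-of-ratios scaling. With a library left out, ranges across 0 were in 2MUT Atf6 -0.03 to 0.07, Hsp90b1 -0.17 to 0.06, Sec61a1 -0.11 to 0.06, Syvn1 -0.03 to 0.15; with 2-HG Calr -0.19 to 0.17, Canx -0.11 to 0.04, Creld2 -0.07 to 0.27, Ern1 -0.02 to 0.18, Edem2 -0.08 to 0.29, Hsp90b1 -0.12 to 0.18, Pdia6 -0.17 to 0.04, Pdia4 -0.11 to 0.06; for the difference Calr -0.00 to 0.36, Edem1 -0.38 to 0.04, Ero1lb -0.08 to 0.16, Hsp90b1 -0.21 to 0.09, Sec24d -0.06 to 0.16. Member changes under 0.2 on the log2 scale had intervals that included 0. So did some larger ones, such as Hspa5 with 2-HG (0.42, -0.21 to 1.04) and Edem1 in 2MUT (0.38, -0.13 to 0.89).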

Other observations

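Set side by side, the reference levels of several members differed between the tables, which were normalized separately and list different entries. Pdia3 was 54.4 ± 5.37 RPM in Control and 1199 ± 86.7 RPM in 2-HG(-) cells (SD, n = 3), Dnajc3 13.7 ± 4.22 and 167 ± 19.3 RPM, Edem1 12.6 ± 3.37 and 108 ± 7.59 RPM, and Dnajb9 14.8 ± 1.56 and 88.6 ± 4.36 RPM. Ero1lb went the other way, at 58.7 ± 10.0 and 4.97 ± 0.761 RPM, as did Ern1, at 403 ± 37.3 and 92.6 ± 14.0 RPM. Such gaps of more than 4-fold were found for 7 of 30 members (23.3%) and for 1676 of all 9594 genes tested in both tables (17.5%). What these gaps mean was not tested, and the changes given for the members were each computed within a table.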
